A study of Mus musculus with 5 samples.

Results

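A set of 10 genes of extracellular nucleotide and adenosine signalling was followed in cultured mouse peritoneal macrophages from mice with a myeloid deletion of Nrp1 and from wild-type mice. Nrp1 encodes neuropilin 1, a surface co-receptor that binds semaphorins and VEGF. The set holds the ATP-gated channels P2rx4 and P2rx7, the nucleotide receptors P2ry1, P2ry2, P2ry6 and P2ry14, the surface enzymes Entpd1 and Nt5e, and the adenosine receptors Adora2a and Adora2b. Each was taken from the deposited table by its symbol, all 10 of 10 were found in 1 row each among 38463 gene symbols, and all 10 passed the filter on low values. The knockout group is labelled genotype Nrp1-/- and strain LysMCre-Nrp1fl/fl (2 libraries), in which Cre recombinase driven from the lysozyme M locus cuts floxed Nrp1 in myeloid cells. The wild-type group is labelled strain C7/BL6 (3 libraries), with no Cre or floxed allele named, so the presence of Cre and the loss of Nrp1 cannot be told apart. Both groups were grown in F12 DMEM with 10% serum. The labels give no age, sex, stimulus or number of animals. Since nothing ties a library to its own animal, the p-values reflect the spread among libraries, which may be technical.

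Cells that are stressed, activated or dying release ATP, UTP and UDP, and macrophages read these nucleotides as danger and find-me signals. The P2X receptors are cation channels opened by ATP, whereas the P2Y receptors are G protein-coupled and differ in whether they respond to ATP, ADP, UTP, UDP or UDP-sugars. The signal is ended in steps at the cell surface: CD39, encoded by Entpd1, cuts ATP and ADP to AMP, and CD73, encoded by Nt5e, cuts AMP to adenosine, which then acts on its own receptors and dampens inflammatory output.

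The values are FPKM, fragments scaled to the length of the transcript and to the mapped reads of the library, so levels can be set side by side between genes. Library sums lay between 539101 and 629135 FPKM, and the read depth is unknown. Wild-type replicate 3 stood apart, with Pearson's r across genes of 0.929 to 0.938 with the other libraries, which had 0.966 to 0.972 among themselves; fold changes and list medians that moved by over 1.5 times without it are also given without it. Nrp1 itself had 7.63 and 7.70 FPKM in knockout and 24.3, 19.0 and 11.5 in wild-type replicates 1, 2 and 3. Lyz2, the gene at the Cre locus, had 53.0 and 64.3 FPKM in knockout and was listed at 0 in each wild-type library, where a listed 0 can be a failed estimate. The macrophage markers were present throughout, with Csf1r at 793 to 943 FPKM in knockout and 765 to 1108 in wild-type. Of 12214 genes tested by limma on log2(FPKM + 1), 7 passed an adjusted p of 0.05. Lyz2, with its listed 0 values, passed (limma adjusted p = 0.000418). Nrp1, the targeted gene, did not, with a log2 fold change of -1.09 (limma adjusted p = 0.93). A gene that did not pass is thus not shown to be unchanged.

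No receptor or enzyme of the set passed that test. Of the 10 genes, 0 were called higher and 0 lower in knockout, where 0.0409% of all tested genes were called higher and 0.0164% lower, 0.0573% in all, and 0 had an unadjusted p under 0.05, where 1.82% of all tested genes had one. The fold changes, all on the log2(FPKM + 1) scale and as knockout minus wild-type, ran from -0.43 for P2ry6 to 0.40 for P2ry14. In 8 genes the fold change was positive and in 2 it was negative, and the median of the set was 0.15. Over all genes the median was 0.11, with 63.9% of fold changes positive. What distinguishes the genes in these data is their level, which spanned from about 2 FPKM for Adora2b to above 200 for P2rx4.

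**Figure D1:**
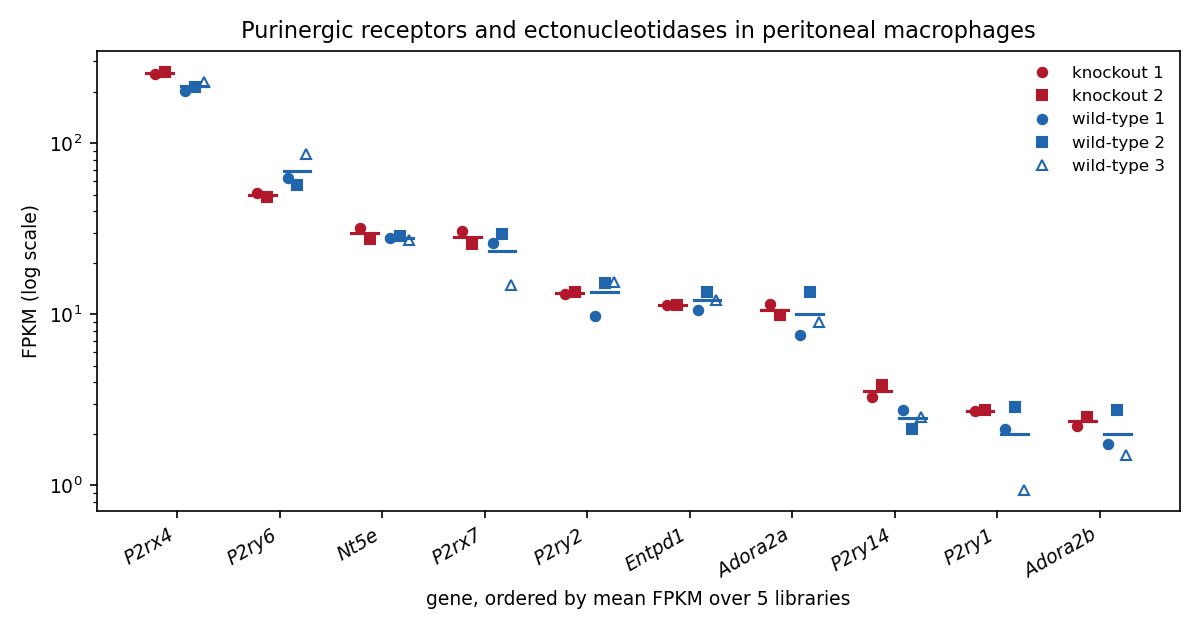
FPKM on a log axis of each gene in the 2 knockout libraries (red, left) and the 3 wild-type libraries (blue, right), with a short bar at each group mean. P2rx4 lies above 200 FPKM in all 5 libraries, and P2ry14, P2ry1 and Adora2b lie below 4; wild-type replicate 3 (open triangle) is the high point of P2ry6 and the low point of P2rx7 and P2ry1.

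P2rx4 was the most abundant of the set in every library. It encodes a cation channel opened by ATP that in macrophages sits largely in lysosomal membranes. It had 252.4 and 262 FPKM in knockout replicates 1 and 2, and 203, 213 and 227 in wild-type replicates 1, 2 and 3. Both knockout libraries were thus above all 3 wild-type libraries. P2rx4 averaged 257 ± 6.53 FPKM in knockout (SD, n = 2) and 214 ± 12.2 in wild-type (SD, n = 3). That is a log2 fold change of 0.26 ± 0.20 (SE), with a 95% interval of -0.22 to 0.75 (limma adjusted p = 0.93). The exact two-sided permutation p was 0.2, which is the smallest that 2 against 3 libraries allow. The groups did overlap when libraries were scaled by their median ratio, at 239 and 247 FPKM in knockout and 195, 199.98 and 275 in wild-type, where the log2 fold change was 0.14. P2rx4 made up 61.5% and 64.2% of the summed FPKM of the 10 genes in knockout, and 57.3%, 56.3% and 57.2% in wild-type. Its mean level lay at percentile 97.4 of the tested genes.

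P2rx7 encodes the channel that opens at high ATP and is known to set off the NLRP3 inflammasome through loss of potassium. It had 30.8 and 25.8 FPKM in knockout replicates 1 and 2, and 26.2, 29.4 and 14.8 in wild-type replicates 1, 2 and 3. The groups overlapped, and wild-type replicate 3 stood alone at the low end. P2rx7 had a log2 fold change of 0.31 ± 0.32 (SE) with an interval of -0.44 to 1.06 (limma adjusted p = 0.93), and it was 0.02 without that library. The ratio of P2rx4 to P2rx7, which does not depend on how a library is scaled, was 8.19 and 10.1 in knockout and 7.75, 7.24 and 15.3 in wild-type. P2rx4 thus exceeded P2rx7 by at least 7.24 times in each library, and the ratio did not separate the groups.

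The 2 channel genes are direct neighbours on the same strand of chromosome 5. P2rx7 spans 122643911 to 122691432 and P2rx4 spans 122707544 to 122729738 in GRCm38, the mm10 build, with 16.1 kb and no protein-coding gene between them. The longest coding transcript has 13 coding exons in P2rx7 and 12 in P2rx4. The 250 bases before the first RefSeq start of each are shown (GRCm38.p6, plus strand, 5′ to 3′, chr5:122707294-122707543 for P2rx4 and chr5:122643677-122643926 for P2rx7). Capitals mark matches, on either strand, to the letters of AP-1 (TGANTCA) and Sp1 (GGGCGG).
P2rx4: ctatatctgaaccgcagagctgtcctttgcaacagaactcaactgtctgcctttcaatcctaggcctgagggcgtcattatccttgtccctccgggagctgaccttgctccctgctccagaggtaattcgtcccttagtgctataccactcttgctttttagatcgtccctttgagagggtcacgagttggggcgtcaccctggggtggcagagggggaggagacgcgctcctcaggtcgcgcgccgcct
P2rx7: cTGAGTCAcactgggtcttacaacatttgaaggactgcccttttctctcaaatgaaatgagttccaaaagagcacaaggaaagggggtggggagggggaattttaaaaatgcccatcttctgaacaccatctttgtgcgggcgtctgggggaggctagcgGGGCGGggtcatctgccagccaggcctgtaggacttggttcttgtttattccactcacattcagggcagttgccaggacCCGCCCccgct
The P2rx7 window held 1 AP-1 match, as did 6.75% of all 32851 RefSeq promoter windows of this length, and 2 Sp1 matches, of which at least 1 was present in 32.7% of windows. The window at the second RefSeq start of P2rx7 held 0 AP-1 and 0 Sp1 matches. The P2rx4 window, at its only RefSeq start, also held neither, and no match to a PU.1 core (GAGGAA, in 23.3% of windows), an E-box (CACGTG, 6.02%), a cAMP response element (TGACGTCA, 1.55%) or a TATA box (TATAAA, 12.4%). No overlap between motifs occurred in either window. The GC content was 57.2% for P2rx4 and 53.6% for P2rx7. Whether any match is bound, or has a part in the levels of the 2 genes, was not tested.

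Among the G protein-coupled nucleotide receptors, P2ry6 was the highest. It encodes the receptor for UDP, which in mouse microglia triggers phagocytosis. It had 51.5 and 48.5 FPKM in knockout replicates 1 and 2, and 62.3, 57.1 and 86.6 in wild-type replicates 1, 2 and 3. Both knockout libraries were below every wild-type library, and wild-type replicate 3 was the highest of all. It averaged 50.01 ± 2.06 FPKM in knockout (SD, n = 2) and 68.7 ± 15.7 in wild-type (SD, n = 3). Its log2 fold change was -0.43 ± 0.24 (SE) with an interval of -0.999 to 0.14 (limma adjusted p = 0.93; exact permutation p = 0.2), and -0.25 without wild-type replicate 3. The groups stayed apart when libraries were rescaled to equal sums, at 54.3 and 49.4 FPKM in knockout and 63.1, 58.5 and 78.3 in wild-type, and when scaled by their median ratio.

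P2ry2 encodes a receptor for ATP and UTP through which macrophages in mice find apoptotic cells. It had 13.1 and 13.5 FPKM in knockout replicates 1 and 2, and 9.75, 15.1 and 15.4 in wild-type replicates 1, 2 and 3. The knockout values lay inside the wild-type range, in which wild-type replicate 1 was low. For P2ry2 the log2 fold change was 0.01 ± 0.26 (SE), with an interval of -0.60 to 0.63, and it was 0.12 without wild-type replicate 3. P2ry2 and P2ry6 are also neighbours, both on the minus strand of chromosome 7, with P2ry6 at 100937630 to 100974649, P2ry2 at 100996568 to 101012866, and 21.9 kb between them. P2ry6 had 3.59 to 6.39 times the FPKM of P2ry2 within a library.

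P2ry14 encodes the receptor for UDP-glucose. It had 3.28 and 3.88 FPKM in knockout replicates 1 and 2, and 2.76, 2.13 and 2.505 in wild-type replicates 1, 2 and 3. Both knockout libraries were above all wild-type libraries. P2ry14 averaged 3.58 ± 0.421 FPKM in knockout (SD, n = 2) and 2.47 ± 0.314 in wild-type (SD, n = 3). Its log2 fold change was 0.40 ± 0.23 (SE) with an interval of -0.13 to 0.94 (limma adjusted p = 0.93; exact permutation p = 0.2), and 0.41 without wild-type replicate 3. The groups stayed apart under both rescalings, with 3.10 and 3.67 FPKM in knockout and 2.64, 2.01 and 3.03 in wild-type after median-ratio scaling. The gene, at 59113855 to 59153618 on chromosome 3, lies within Med12l on the other strand. Med12l stood at no more than 0.0138 FPKM in any library.

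P2ry1, the ADP receptor best known from platelets, had 2.71 and 2.75 FPKM in knockout replicates 1 and 2, and 2.15, 2.89 and 0.940 in wild-type replicates 1, 2 and 3. The groups overlapped, with wild-type replicate 3 below all others. P2ry1 had a log2 fold change of 0.38 ± 0.33 (SE) with an interval of -0.41 to 1.16, and 0.09 without wild-type replicate 3. The megakaryocyte and platelet genes Ppbp, Itga2b and Gp9 were each under 1 FPKM in all 5 libraries. Pf4, which macrophages also express, stood at 751 and 823 FPKM in knockout and 956, 400.0 and 781 in wild-type.

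**Figure D2:**
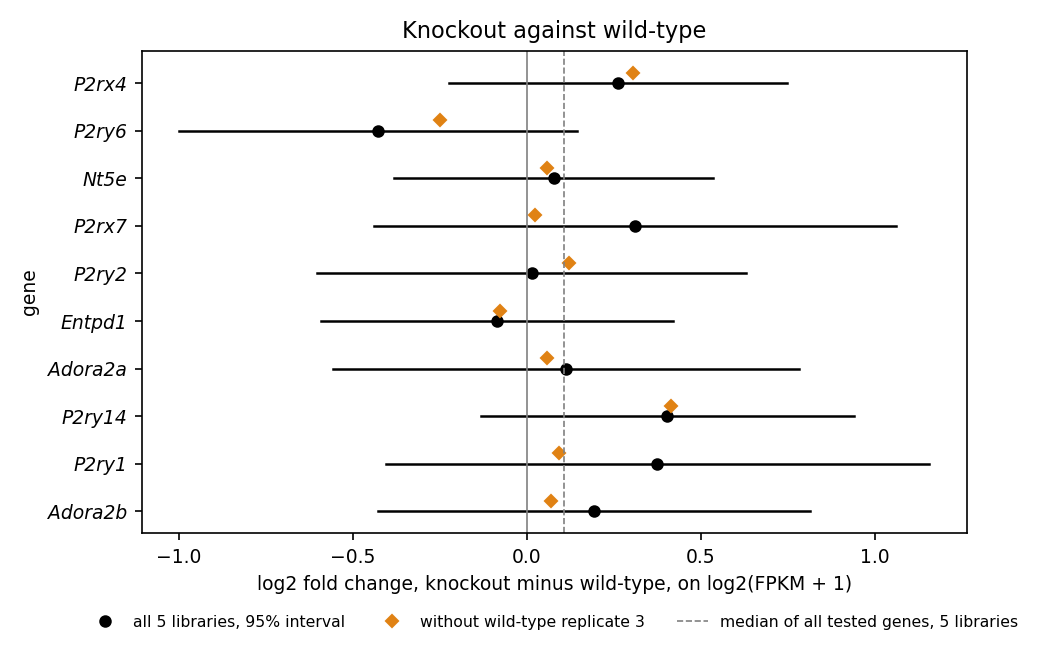
Log2 fold change of knockout over wild-type on log2(FPKM + 1) for each gene, with all 5 libraries (black, bar for the 95% interval from limma) and without wild-type replicate 3 (orange); the dashed line is the median of all tested genes, 0.11. Every interval includes 0, and P2rx7 and P2ry1 move to 0.02 and 0.09 without that library.

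Of the surface enzymes, Nt5e was the higher in every library. Nt5e, which makes adenosine from AMP, had 31.8 and 27.6 FPKM in knockout replicates 1 and 2, and 28.0, 28.8 and 27.3 in wild-type replicates 1, 2 and 3. The values of the groups overlapped and spanned 27.3 to 31.8 over all libraries, and 24.7 to 33.5 when libraries were rescaled to equal sums. For Nt5e the log2 fold change was 0.08 ± 0.19 (SE) with an interval of -0.38 to 0.54. Entpd1, which removes ATP and ADP, had 11.3 and 11.3 FPKM in knockout replicates 1 and 2, and 10.6, 13.5 and 12.1 in wild-type replicates 1, 2 and 3. Its knockout values lay within the wild-type range, and its fold change of -0.09 ± 0.21 (SE) on the log2 scale had an interval of -0.59 to 0.42. Nt5e had 2.82 and 2.44 times the FPKM of Entpd1 in knockout and 2.64, 2.14 and 2.25 times in wild-type. The transcript of the AMP-cutting enzyme thus exceeded that of the ATP-cutting enzyme in all 5 libraries, by a ratio that overlapped between the groups (exact permutation p = 0.4). Lymphocytes and mesothelial or fibroblast cells can also carry CD73. The summed level of 6 B cell markers was 2.39 and 2.39 FPKM in knockout and 1.59 to 3.60 in wild-type, and that of 6 T cell markers was 0.906 to 1.00 FPKM in knockout and 1.02 to 2.40 in wild-type. The 9 mesothelial and fibroblast markers summed to 22.6 to 29.0 FPKM in knockout and 23.9 to 53.3 in wild-type. Msln, Upk3b, Wt1 and Krt19 were under 1 FPKM throughout. Sparc, Col1a1, Col1a2, Bgn and Dcn were the 5 tested, and all 5 fold changes were negative. Each of the 5 was higher in wild-type replicates 1 and 2 than in both knockout libraries. Among the wild-type libraries, replicate 3 was the lowest for each. Sparc had 8.62 to 9.20 FPKM in knockout and 8.59 to 19.1 in wild-type. The part of mesothelial or fibroblast cells in the Nt5e values was not tested. In bulk RNA, fewer cells of a type and less RNA per cell cannot be told apart.

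Adenosine receptor transcripts were led by Adora2a. Adora2a, which raises cAMP at low adenosine, had 11.5 and 9.86 FPKM in knockout replicates 1 and 2, and 7.58, 13.5 and 8.99 in wild-type replicates 1, 2 and 3. The knockout values lay inside the wild-type range, whose extremes were wild-type replicates 1 and 2. Adora2a had a log2 fold change of 0.11 ± 0.28 (SE) with an interval of -0.56 to 0.78, and 0.06 without wild-type replicate 3. Adora2b, the receptor that needs more adenosine, had 2.23 and 2.53 FPKM in knockout replicates 1 and 2, and 1.74, 2.77 and 1.498 in wild-type replicates 1, 2 and 3. It too lay inside the wild-type range, with a log2 fold change of 0.19 ± 0.26 (SE) and an interval of -0.43 to 0.81, and of 0.07 without wild-type replicate 3. Adora2a had 3.90 to 6.004 times the FPKM of Adora2b within a library, with 5.13 and 3.90 times in knockout and 4.35, 4.88 and 6.004 times in wild-type.

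Ordered by mean FPKM over the 5 libraries, the genes formed 4 steps. P2rx4 (231) stood above P2ry6 (61.2), and P2ry6 above Nt5e (28.7), with no overlap of the library values at either step and ratios of the means of 3.78 and 2.13. Below them Nt5e and P2rx7 (25.4) overlapped, as did P2rx7 and P2ry2 (13.4), P2ry2 and Entpd1 (11.8), and Entpd1 and Adora2a (10.3). P2rx7 and P2ry2 overlapped only through wild-type replicate 3, at 14.8 and 15.4 FPKM, so the number of steps depends on that library. The next gap fell between Adora2a and P2ry14 (2.91), where the means differed by 3.53 times without overlap. P2ry14, P2ry1 (2.29) and Adora2b (2.15) overlapped with each other in neighbouring pairs. P2rx4 and P2ry6 held the first and second rank in every library, and the 3 lowest genes were the same 3 in every library.

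In P2rx4, P2ry6 and P2ry14 the groups did not overlap, with knockout higher in 2 and lower in 1 of the 10. Over all tested genes the groups did not overlap for 20.8%, with knockout higher in 13.9% and lower in 6.95%. With 10 genes, the 3 that did not overlap are close to that background, and nothing particular to the set follows from them. Ratios of a gene that was higher to one that was lower had to separate the groups too, so they are given as values with no test. P2rx4 had 4.90 and 5.39 times the FPKM of P2ry6 in knockout and 3.26, 3.72 and 2.63 times in wild-type, and P2ry6 had 15.7 and 12.5 times that of P2ry14 in knockout and 22.6, 26.8 and 34.6 times in wild-type. These ratios were picked after the values were seen.

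**Figure D3:**
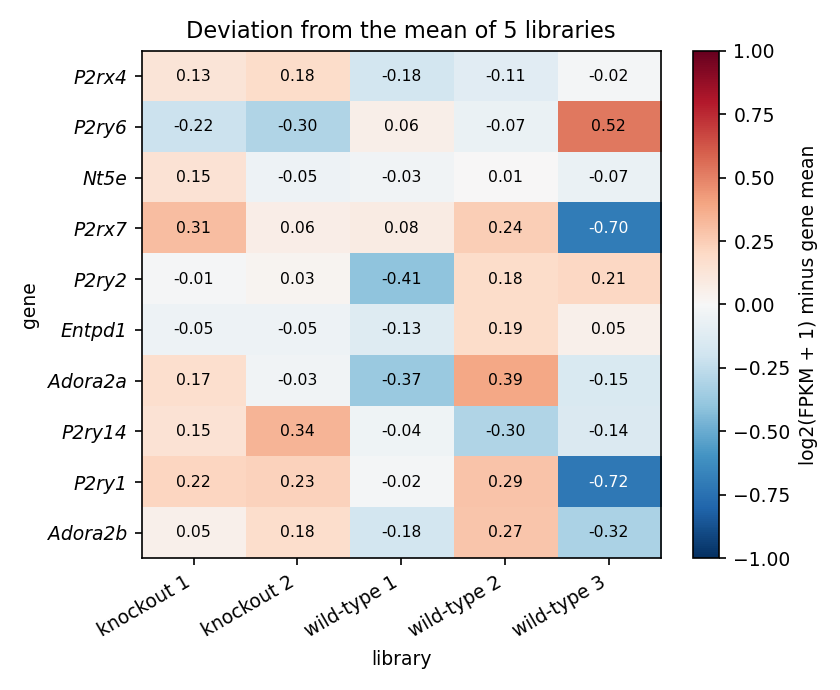
Deviation of log2(FPKM + 1) in each library from the gene's mean over the 5 libraries, knockout at the left. The strongest deviations are those of wild-type replicate 3, at -0.72 for P2ry1, -0.70 for P2rx7 and 0.52 for P2ry6. P2rx4, Nt5e and Entpd1 stay within 0.19 of their means.

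Wild-type replicate 3 was the lowest of the 5 libraries for 4 of the genes and the highest for 2. Relative to the mean of the other 4 libraries it deviated by a median of -0.13 on the log2 scale over the set and of -0.30 over all tested genes, ranging within the set from -0.90 for P2ry1 and -0.87 for P2rx7 to 0.65 for P2ry6. Mast cell markers were also high there: the 6 of that list summed to 34.0 and 18.2 FPKM in knockout and to 16.3 to 176 in wild-type, with the tryptase gene Tpsb2 at 144 FPKM in wild-type replicate 3. Their part in these values was not tested. Without that library 8 of the 10 fold changes were positive and 2 negative, with a median of 0.06, against 0.02 and 53.4% positive over all genes.

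The wider pathway was read through a list of 85 further genes, of which Lrrc8a was not analysed here. Of the other 84, 63 were tested, and 0 were called in either direction (limma adjusted p of at least 0.93). Fold changes were positive for 48 and negative for 15, with a median of 0.18. Without wild-type replicate 3, 38 were positive and the median was 0.05. At an unadjusted p under 0.05 there were 3 genes, beside 1.82% of all tested genes. Groups did not overlap for 11 genes with knockout higher and 4 with knockout lower, beside the 13.9% and 6.95% of all genes.

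Other nucleotide and adenosine receptors were scarce. Of the other P2X receptors (5 genes, 1 tested), P2rx1 had 1.31 and 1.25 FPKM in knockout and 0.448, 1.39 and 1.01 in wild-type. None of the 4 other P2Y receptors P2ry4, P2ry10, P2ry12 and P2ry13 exceeded 0.698 FPKM in any library, and P2ry4 was listed at 0 in all. Adora3, the mast cell and macrophage adenosine receptor, had 1.37 and 0.741 FPKM in knockout and 1.82, 1.85 and 0.852 in wild-type, and Adora1 stayed under 0.02 FPKM.

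The list of other nucleotide enzymes and phosphatases (15 genes, 9 tested) is not limited to enzymes of the cell surface. Its fold changes were positive for all 9 with the 5 libraries and for 7 without wild-type replicate 3. Entpd7 (-0.11) and Cd38 (-0.05) were negative without that library. The median was 0.30, and 0.11 without that library. Bst1, which encodes the ADP-ribosyl cyclase relative CD157, had 172 and 162 FPKM in knockout and 118, 115 and 75.35 in wild-type, with no overlap (log2 fold change 0.72, unadjusted p = 0.028, limma adjusted p = 0.93). It was 0.52 on that scale without wild-type replicate 3. The acid phosphatase gene Acpp had 56.7 and 86.5 FPKM in knockout and 61.7, 28.6 and 19.4 in wild-type, which overlapped. Cd38, the NAD-consuming enzyme, had 9.52 and 10.9 FPKM in knockout and 8.99997, 12.5 and 2.56 in wild-type.

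Among release routes for nucleotides (5 genes, 2 tested), the channel gene Panx1 had 21.9 and 24.7 FPKM in knockout and 18.8, 23.0 and 30.3 in wild-type. Its log2 fold change turned with wild-type replicate 3, at -0.02 with all libraries and 0.15 without that one. The vesicular nucleotide transporter gene Slc17a9 had 5.03 and 3.33 FPKM in knockout and 5.06, 3.78 and 4.02 in wild-type. Of the genes that remove adenosine (9 genes, 6 tested, 4 positive and 2 negative, median 0.22, and 0.094 without wild-type replicate 3), Adk, the adenosine kinase, had 9.46 and 9.58 FPKM in knockout and 8.98, 6.67 and 5.10 in wild-type, without overlap. Pnp, the purine nucleoside phosphorylase, had 55.8 and 44.1 FPKM in knockout and 56.6, 41.0 and 35.9 in wild-type. The equilibrative transporter gene Slc29a1 stood at 19.8 and 17.9 FPKM in knockout and 21.1, 21.3 and 17.7 in wild-type. Its relative Slc29a3, which works in lysosomes, stood at 16.6 and 13.2 FPKM in knockout and 11.98, 12.99 and 11.6 in wild-type, without overlap. Cytosolic nucleotidases and adenylate kinases (11 genes, 10 tested) had 7 positive and 3 negative fold changes with a median of 0.09, but 5 positive and a median of 0.016 without wild-type replicate 3. They were led by Ampd3, an AMP deaminase, at 95.8 and 86.1 FPKM in knockout and 82.5, 93.7 and 59.8 in wild-type. Ampd2 had 54.6 and 50.1 FPKM in knockout and 46.3, 48.4 and 21.2 in wild-type, without overlap. The nucleotidase gene Nt5c had 47.2 and 48.6 FPKM in knockout and 54.6, 52.3 and 64.8 in wild-type, also without overlap.

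**Figure D4:**
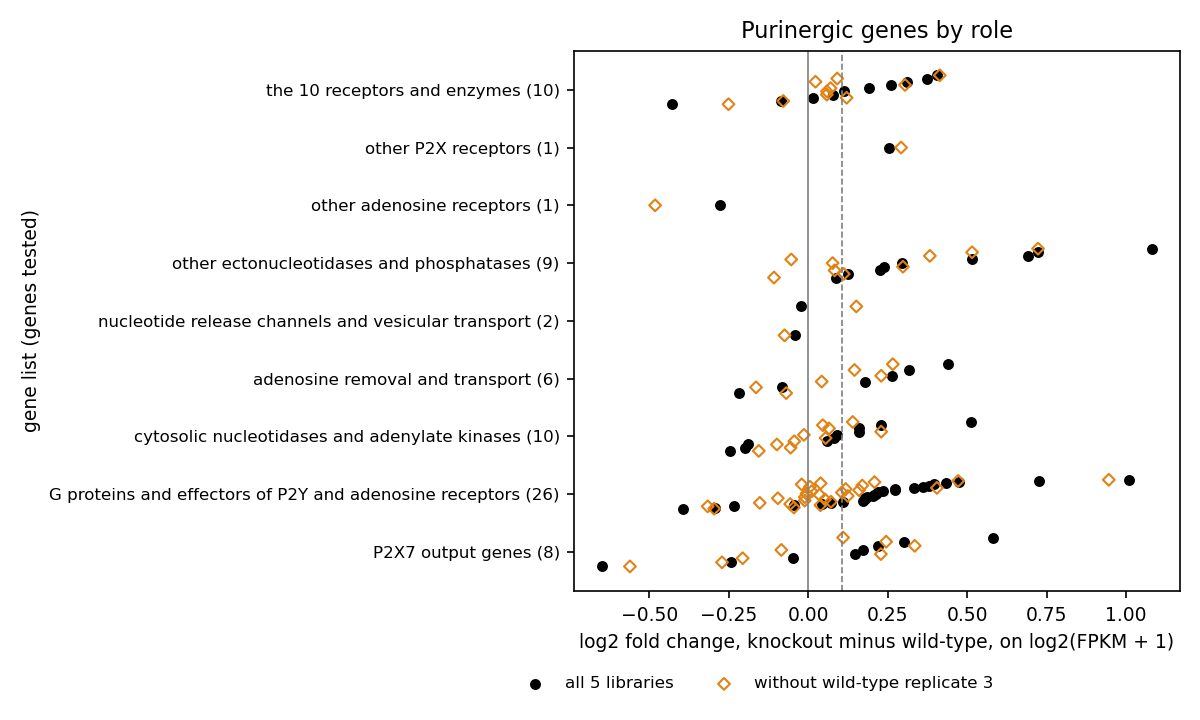
Log2 fold change of knockout over wild-type on log2(FPKM + 1) for each tested gene, by role, with all 5 libraries (black) and without wild-type replicate 3 (open orange); the solid line is 0 and the dashed line the median of all tested genes, 0.11. No gene shown passed an adjusted p of 0.05, and most points lie closer to 0 without that library.

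G proteins and effectors of these receptors (26 genes, 26 tested, 22 positive and 4 negative) had a median of 0.21, and of 0.04 with 16 positive without wild-type replicate 3. Gnas, the G protein by which the Adora2a and Adora2b products raise cAMP, had 752 and 643 FPKM in knockout and 960.1, 759.7 and 1047 in wild-type, without overlap and with a log2 fold change of -0.39 (limma adjusted p = 0.93). Gnai2 had 470.3 and 411 FPKM in knockout and 434, 473 and 760.3 in wild-type, and the arrestin gene Arrb2 had 413 and 355 FPKM in knockout and 370.1, 358 and 335 in wild-type. The adenylyl cyclase gene Adcy3 had 1.75 and 2.97 FPKM in knockout and 0.864, 0.576 and 0.505 in wild-type, without overlap. Its log2 fold change was 1.01 (limma unadjusted p = 0.00578, limma adjusted p = 0.93), and 0.95 without wild-type replicate 3. Prkacb, a catalytic subunit of protein kinase A, had 20.2 and 18.6 FPKM in knockout and 11.7, 15.97 and 7.68 in wild-type, without overlap.

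Genes listed from textbook roles as outputs of P2rx7 (8 genes, 8 tested) had 5 positive and 3 negative fold changes with a median of 0.16. Without wild-type replicate 3 there were 4 positive and the median was 0.013. Whether P2rx7 acts through these genes in these cells was not tested. The list includes Kcnn4, a calcium-activated potassium channel, with 34.5 and 29.1 FPKM in knockout and 47.9, 46.4 and 56.9 in wild-type. Its groups did not overlap, and the log2 fold change was -0.65 (unadjusted p = 0.017, limma adjusted p = 0.93), and -0.56 without wild-type replicate 3. Pycard, the inflammasome adaptor, had 40.7 and 43.6 FPKM in knockout and 55.7, 46.8 and 48.2 in wild-type, without overlap. Ano6, a lipid scramblase, had 50.7 and 45.5 FPKM in knockout and 41.1, 39.7 and 35.9 in wild-type, also without overlap. Txnip had 246 and 182 FPKM in knockout and 166, 232 and 72.8 in wild-type. The groups overlapped for Txnip, Nlrp3, Casp1, Il1b and Gsdmd. Of the 8 genes they did not overlap for 1 with knockout higher and 2 with knockout lower. Over all tested genes those shares were 13.9% and 6.95%.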

How the data were processed

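Per the labels' protocols, poly(A) RNA from 1 µg of total RNA was made into Ion Torrent libraries, and the reads were processed in Torrent Suite 4.4 with the Whole Transcriptome Analysis Plugin 4.2-r7. TopHat2, Bowtie2 and Cufflinks are named, without versions, in the submitters' processing notes, as is the mm10 build. What the authors deposited is 1 column of FPKM per library, from Cufflinks; 17 deposited columns derived from them were not used, and the read depth is unknown.

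The table's names are sorted with hyphens ignored, but the values of wild-type replicate 3 follow a sort in which hyphens count, so 2144 rows held another gene's value. Reordering raised Pearson's r of the 722 expressed displaced rows with the mean of the other libraries to 0.916 (0.171 as deposited). Of the 10 genes, 0 stood in displaced rows. Rows with a number for a name (27) or names differing in case alone (50) were left out, and rows of 1 symbol were summed.

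Genes with at least 1 FPKM in at least 2 libraries were tested by limma 3.58.1 (R 4.3.3) on log2(FPKM + 1), in a model that holds genotype alone, with a trend of variance on mean and p-values adjusted by Benjamini-Hochberg over 12214 genes; adding 1 understates the change of low genes. Gene coordinates are from GENCODE M21 (GRCm38); 8 of the 10 genes matched a RefSeq promoter entry (GRCm38.p6), not P2ry6 and Adora2a. From each list of other pathway genes, the tested genes with the highest mean (up to 3) and the smallest unadjusted p (up to 2) are named, plus a few chosen after their values were seen. The 10 genes, the lists and the alternatives were chosen with earlier results of these data known. Replicate numbers shared by the groups were checked by the correlation of deviations from group means, which was -0.05 for number 1 and -0.01 for number 2. The deviations of 2 knockout libraries from their mean are exact opposites, so the 2 values are not independent and cannot decide on pairing.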

Additional observations from a re-analysis of the deposited data

How the results depend on the processing

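In the fit as reported the count of called genes was 0 of 10 in the set and 0 of 63 in the wider pathway. Both counts were 0 under all 15 alternatives run, in which the number of genes tested varied. The lowest limma adjusted p of the 10 genes was 0.56 (library weights). P2rx4, P2ry6, P2rx7, Entpd1, P2ry14, P2ry1 and Adora2b kept the direction of their fold change under every alternative in which they were tested. With a filter at 5 FPKM the last 3 were not tested. Some of these fold changes came near 0, at -0.0012 for Entpd1 with library weights and 0.021 for Adora2b with quantile normalization. The log2 fold change changed sign for Nt5e (-0.042) and P2ry2 (-0.10) with median-of-ratios scaling, and for P2ry2 (-0.080) and Adora2a (-0.016) with quantile normalization; the cause was not tested. Leaving out 1 library at a time gave ranges of -0.023 to 0.18 for Nt5e, -0.19 to 0.12 for P2ry2 and -0.051 to 0.33 for Adora2a. Without wild-type replicate 3 the log2 fold change moved by over 1.5 times for 6 of the 10 genes. Over all genes 7 were called, and 1 with no filter, 2 with a filter at 5 FPKM, 21 with library weights, 3 with wild-type replicate 3 in the order as deposited and 0 to 14 when 1 library was left out. The median fold change of all genes was 0.11 in the fit as reported, 0.17 with equal FPKM sums and 0.0038 with median-of-ratios scaling. A replicate block called 4 genes and none of the set; the numbers are not shown to pair the libraries. With 2 against 3 libraries and unknown depth, the 95% intervals of the log2 fold changes were between 0.92 (Nt5e) and 1.56 (P2ry1) wide.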

Other observations

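Other cell type markers, read for the whole set of libraries, were as follows. The 6 macrophage markers found summed to 3477 to 3782 FPKM in knockout and 3418 to 5541 in wild-type, and the 7 markers of large peritoneal macrophages to 165 to 219 FPKM in knockout and 137 to 146 in wild-type. Prg4 was the largest part of the large peritoneal sum in each library, at 147 and 119 FPKM in knockout and 81.8, 53.9 and 70.5 in wild-type, and of the 6 tested markers of that list 3 had positive and 3 negative fold changes. The neutrophil list summed to 44.3 to 58.6 FPKM in knockout and 23.2 to 73.5 in wild-type, nearly all of it S100a8, with Ly6g at 0 in each library. The 3 eosinophil markers found summed to at most 0.516 FPKM in knockout and 0.560 in wild-type, with Prg2 and Epx at 0 throughout. Dendritic cell markers summed to 1.85 to 1.88 FPKM in knockout and 0.968 to 1.99 in wild-type, and endothelial markers to at most 0.274 FPKM in knockout and 0.472 in wild-type. The list of 4 platelet and megakaryocyte markers summed to 752 to 824 FPKM in knockout and 401 to 957 in wild-type, of which Pf4 was the most.

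The 10 genes together summed to 411 and 407 FPKM in knockout and 354, 378 and 397 in wild-type, with P2rx4 as the largest part in each library. Within Entpd1 lies the processed pseudogene Gm8783 on the same strand, at 4.403 and 6.25 FPKM in knockout and 5.20, 5.62 and 0.800 in wild-type.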
